A study of Homo sapiens with 2 samples.

Results

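Aminoacyl-tRNA synthetases were compared between RKO cells given an siRNA against hnRNPU and RKO cells given a control siRNA. The 39 genes, among 40205 genes in the deposited table, were chosen by gene symbol from a list proposed with results of these data in view, so their ratios are given as a description and none was tested. They comprise 20 genes of cytosolic enzymes, 16 of mitochondrial enzymes (names ending in 2) and 3 of scaffold proteins of the multisynthetase complex, AIMP1, AIMP2 and EEF1E1. All 39 were found in the table, and 35 of them reached 5 FPKM (fragments per kilobase of gene, scaled to depth) in the higher library. RKO is an established human colorectal carcinoma line, and hnRNPU, also called scaffold attachment factor A, is a nuclear protein that binds RNA and DNA. Both groups were transfected cells of this line, and each was sequenced as 1 library of total RNA. The sources used here do not give the time after transfection, the siRNA sequences or the number of dishes. With 1 library per group, "higher" and "lower" describe these libraries only, and no difference has a replicate check.

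An aminoacyl-tRNA synthetase joins an amino acid to its tRNA, and the charged tRNA carries it to the ribosome. Human cells keep a cytosolic set for the ribosomes of the cytosol and a separate mitochondrial set, also encoded in the nucleus, for the mitochondrial ribosomes. GARS (glycine) and KARS (lysine) serve both compartments from the same gene, and glutamine has no mitochondrial enzyme of its own. Several cytosolic enzymes are held in the multisynthetase complex by the 3 scaffolds. Many cytosolic synthetase genes, but not all, are known targets of ATF4, the transcription factor that cells make when amino acids are short or unfolded proteins accumulate. ATF4 pairs with C/EBP proteins on a composite DNA element whose core reads TGATGNAA.

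HNRNPU stood at 75.4 FPKM after knockdown and 239 FPKM in the control, a remainder of 31.5%. The depth recovered from the steps between low FPKM values was 31801650 reads for the control and 39807025 for the knockdown. Of the epithelial markers, EPCAM was at 13.8 and 13.7 FPKM and KRT18 at 88.1 and 81.6 FPKM in the control and knockdown libraries, and CDH1 was listed at 0 in both. Of the 3 colon markers, CDX2 was at 4.83 and 4.41 FPKM, KRT20 was listed at 0 and VIL1 reached at most 0.0092 FPKM. The 4 blood markers were listed at 0 in both libraries, and the fibroblast and muscle markers summed to 0.322 and 0.570 FPKM.

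The promoter stretches that hold this element are shown first, so that their letters can be read beside the ratios. RefSeq windows (build GRCh38.p14, 250 bases before to 50 after a gene start) were matched by gene identifier for 33 of the 39 members, and the missing entries are LARS, YARS, DARS, VARS, AARS2 and VARS2. The element was searched as TGATGNAA on both strands after the ratios had been seen. It occurred in a window of 7 of the 16 matched cytosolic genes, 1 of the 14 matched mitochondrial genes and none of the 3 scaffolds, against 4.46% of all 27305 genes with a window. By the limit given further on, 7 of the 16 matched cytosolic genes counted as lower. The element occurred in 4 of those 7 and in 3 of the other 9. The 3 carriers among the other 9, IARS, NARS and TARS, also stood below the control, by less than that limit. All 8 matches are given with 20 bases on each side, read along the strand of the element, with the element in capitals.
AARS, chr16:70289666-70289713, plus strand: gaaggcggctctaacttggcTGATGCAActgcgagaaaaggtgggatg
CARS, chr11:3057398-3057445, plus strand: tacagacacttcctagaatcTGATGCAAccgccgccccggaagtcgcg
GARS, chr7:30594825-30594872, minus strand: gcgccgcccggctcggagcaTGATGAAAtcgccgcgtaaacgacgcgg
IARS, chr9:92293683-92293730, plus strand: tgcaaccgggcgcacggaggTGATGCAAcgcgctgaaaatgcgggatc
MARS, chr12:57488044-57488091, minus strand: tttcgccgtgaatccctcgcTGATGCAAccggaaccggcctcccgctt
NARS, chr18:57621795-57621842, minus strand: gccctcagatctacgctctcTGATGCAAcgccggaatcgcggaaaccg
TARS, chr5:33440947-33440994, minus strand: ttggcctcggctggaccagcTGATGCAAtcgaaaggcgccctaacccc
YARS2, chr12:32756067-32756114, minus strand: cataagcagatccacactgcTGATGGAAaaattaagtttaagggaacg

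In 6 of the 8 matches, all of them in cytosolic genes, the variable base was C, giving TGATGCAA. Counted along the gene, with the start at 1 and the base before it at -1, the match began at -33 in GARS, -13 in IARS, -4 in MARS, -2 in CARS, 3 in TARS and 15 in NARS. It lay farther upstream in AARS (-187) and in YARS2 (-197). In IARS, MARS, CARS and TARS the element thus touched or lay within a few bases of an annotated start. A match is a run of letters and not a shown binding site, and its part in the ratios was not tested. CARS, the member with the lowest ratio, and KARS, the cytosolic gene with the highest, are shown over a whole window as the ends of the class. CARS carries the element in 1 of its 2 windows, the one printed, on the reverse strand in capitals, and KARS has no match. WARS, nearly as low as CARS, has no match in either of its 2 windows.
CARS, chr11:3057374-3057673, minus strand: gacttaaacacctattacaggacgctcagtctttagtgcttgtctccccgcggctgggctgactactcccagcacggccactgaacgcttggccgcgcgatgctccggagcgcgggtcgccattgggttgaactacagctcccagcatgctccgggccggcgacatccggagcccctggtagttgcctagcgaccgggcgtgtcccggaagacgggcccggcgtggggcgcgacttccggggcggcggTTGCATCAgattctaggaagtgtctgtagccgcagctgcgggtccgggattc
KARS, chr16:75647616-75647915, minus strand: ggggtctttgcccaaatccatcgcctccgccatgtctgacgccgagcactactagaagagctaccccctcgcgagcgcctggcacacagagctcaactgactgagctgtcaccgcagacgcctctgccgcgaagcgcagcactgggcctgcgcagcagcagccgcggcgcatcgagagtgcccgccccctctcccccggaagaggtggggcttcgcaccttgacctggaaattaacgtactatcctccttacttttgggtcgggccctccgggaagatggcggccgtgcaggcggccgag

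The median ratio of the cytosolic enzymes lay below 0, though 6 of the 20 genes lay above it. The median of the mitochondrial enzymes lay slightly above 0. Log2 ratios compare (FPKM + 1) after knockdown with (FPKM + 1) in the control, and the added 1 understates the difference of low genes. The median log2 ratio was -0.22 over the 20 cytosolic enzymes, 0.09 over the 16 mitochondrial enzymes and 0.45 over the 3 scaffolds. Over all 7958 genes that reached 5 FPKM in at least a single library the median was 0.03. In RNA of whole cultures, fewer cells using a gene and less RNA per cell cannot be told apart. A ratio below 0 was found in 14 of the 20 cytosolic enzymes (11 with the libraries scaled to equal FPKM sums). It was found in 3 of the 16 mitochondrial enzymes (2 to 4 over the scalings tried), against 46.1% of the 7958 genes. A ratio above 0 was found in 6 cytosolic enzymes, 13 mitochondrial enzymes and all 3 scaffolds, against 53.9% of the 7958 genes. FARS2, WARS2, SARS2 and PARS2 are among those 13 but lay under 5 FPKM, a level that the 7958 genes exclude. At a log2 ratio of -0.5 or less and 5 FPKM or more in the higher library, 7 of the 20 cytosolic enzymes counted as lower and none of the 12 mitochondrial enzymes at that level did, against a background of 6.2% of all genes. At 0.5 or more, 1 cytosolic enzyme, 2 mitochondrial enzymes and 1 scaffold counted as higher, against a background of 6.13%. CARS was the single member at -1 or less, where 0.754% of all genes lay, and no member reached 1, where 0.314% lay. Nearest the limits were GARS (-0.51), AIMP1 (0.52) and TARS2 (0.54) inside, and YARS2 (0.49), AIMP2 (0.45) and HARS (0.44) outside.

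Summed over the class, the cytosolic enzymes had 1992 FPKM in the control and 1581 FPKM after knockdown, 79.4% of the control sum. The mitochondrial enzymes summed to 177 and 209 FPKM, 118% of the control sum, and the scaffolds to 69.2 and 93.6 FPKM. In the control library the cytosolic enzymes ranged from 20.3 to 243 FPKM and the mitochondrial enzymes from 1.28 to 59.8 FPKM. IARS2 (isoleucine) was the single mitochondrial enzyme inside the cytosolic range there. For all genes of similar abundance, 13 of the 20 cytosolic enzymes fell among the 954 genes with 60 to 300 FPKM in the higher library, whose median log2 ratio was 0.10 with 6.60% at -0.5 or less. The other 7 fell among the 2146 genes with 20 to 60 FPKM, whose median was 0.07 with 5.17% at -0.5 or less. At the lower levels common among mitochondrial enzymes, the 4671 genes with 5 to 20 FPKM had a median of 0.006 with 5.07% at 0.5 or more.

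**Figure D1:**
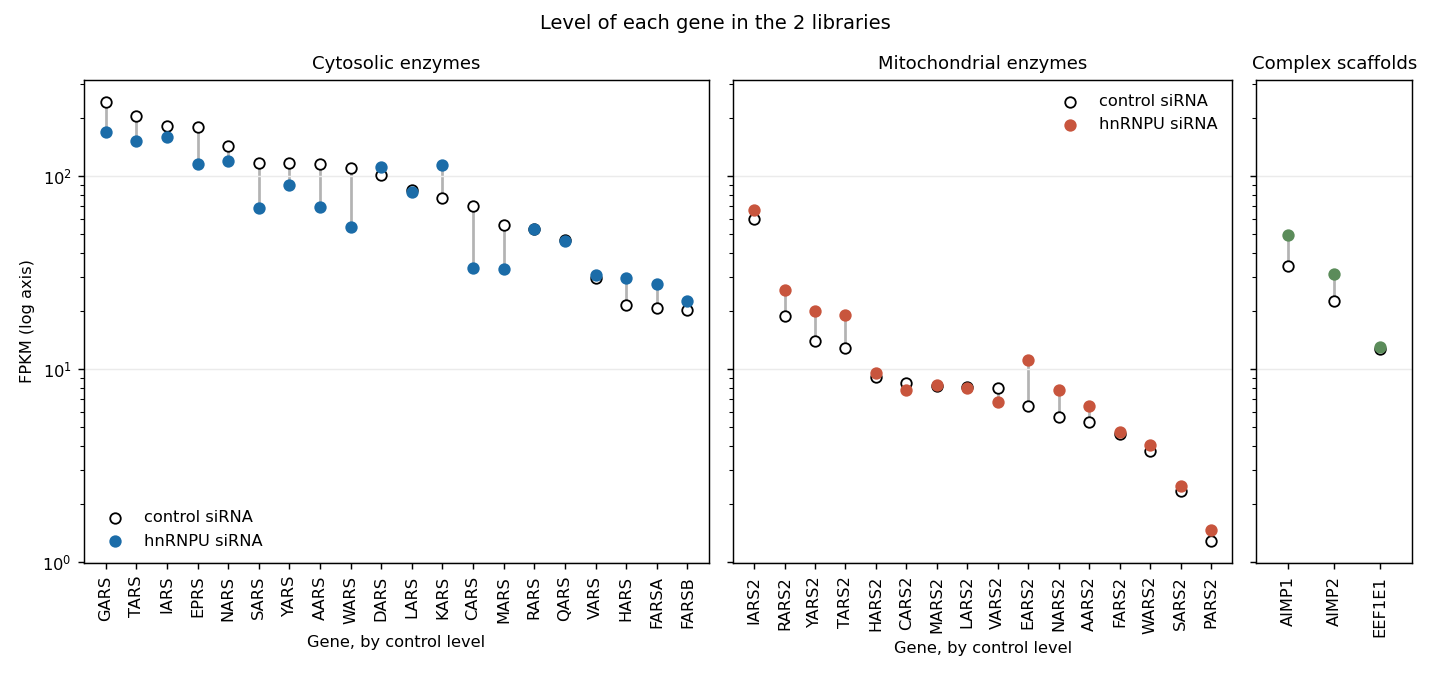
FPKM on a log axis of each gene in the control siRNA library (open circles) and the hnRNPU siRNA library (filled circles), 1 value per library, ordered by control level within the cytosolic, mitochondrial and scaffold groups. The widest gaps are downward in the cytosolic panel, as for CARS and WARS, and upward in the mitochondrial panel, as for EARS2.

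Within the cytosolic class, the lower genes were those reported as ATF4 targets. The 12 genes so listed (AARS, CARS, EPRS, GARS, IARS, LARS, MARS, NARS, SARS, TARS, WARS and YARS) all had ratios below 0, from -1.05 to -0.03, with a median of -0.57. LARS alone of them crossed 0 when the libraries were scaled to equal FPKM sums. The other 8 ranged from -0.02 to 0.56 with a median of 0.14. The 7 genes that counted as lower were all among the 12. This list was drawn up from general knowledge with it known that ATF4 targets as a list were lower in these libraries, so the split is a description and no separate support. The sums were 1622 FPKM in the control and 1147 FPKM after knockdown for the 12 (70.7%), and 370 and 435 FPKM for the 8 (117%). TGATGNAA was present in 7 of the 10 listed genes with a window and in none of the other 6. A match in any window of a gene counted, and the 10 had 15 windows while the 6 had 6. Whether genes were reported as targets because of this element was not checked, so list and element may not be independent. It was absent from the windows of EPRS, SARS and WARS, which were also lower, and present in those of NARS and IARS, whose ratios were nearer 0, and in that of TARS, which did not pass the limit.

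CARS, the cysteine enzyme (chromosome 11, positions 3022152 to 3078681 of GRCh37, minus strand), stood at 33.2 FPKM after knockdown and 70.0 FPKM in the control. Its log2 ratio of -1.05 was the lowest of the 39, and the exact 95% counting interval of its FPKM ratio was 0.456 to 0.494. WARS, the tryptophan enzyme (chromosome 14, positions 100800125 to 100841927, minus strand), stood at 54.4 against 110 FPKM, a log2 ratio of -0.998 with an interval of 0.481 to 0.512. CARS and WARS were the members furthest below the control.

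SARS, AARS and MARS, which charge serine, alanine and methionine tRNAs, formed a group with nearly equal ratios. SARS stood at 68.6 FPKM after knockdown and 116 FPKM in the control (log2 ratio -0.75). AARS stood at 68.9 against 116 FPKM (-0.74), and MARS at 33.0 against 55.9 FPKM (-0.74). Their FPKM ratios, 0.589, 0.594 and 0.591, lay within each other's counting intervals.

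EPRS is a bifunctional enzyme that charges both glutamate and proline tRNAs and is the longest protein of the complex. It stood at 115 FPKM after knockdown and 180 FPKM in the control, a log2 ratio of -0.64 with an interval of 0.631 to 0.653. GARS, the most abundant member in both libraries, stood at 170 against 243 FPKM (-0.51, interval 0.688 to 0.7105). Both enzymes counted as lower, GARS no longer when the libraries were scaled to equal FPKM sums.

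The remaining listed genes were lower by less than the limit. TARS (threonine) stood at 152 FPKM after knockdown and 205 FPKM in the control (log2 ratio -0.43), and YARS (tyrosine) at 89.5 against 116 FPKM (-0.37). NARS (asparagine) stood at 120 against 143 FPKM (-0.26) and IARS (isoleucine) at 160 against 182 FPKM (-0.19). The counting intervals of these 4 lay below 1. LARS, the leucine enzyme, differed from the other 11 listed genes in that its interval, 0.958 to 1.004, reached 1: it stood at 82.6 against 84.2 FPKM.

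**Figure D2:**
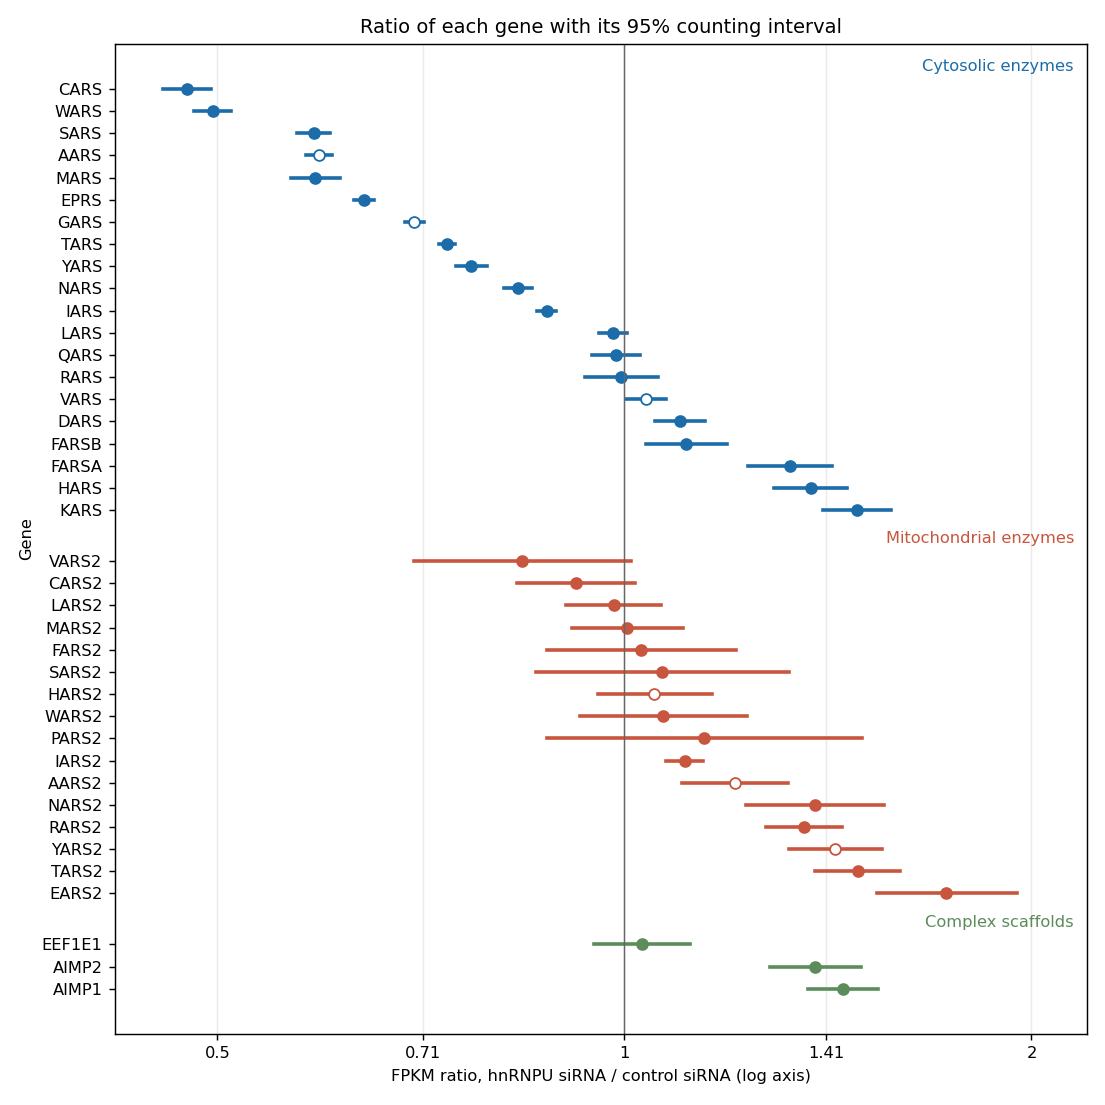
FPKM ratio of the hnRNPU siRNA library over the control siRNA library on a log axis (points) with exact 95% counting intervals (bars) for each gene, cytosolic enzymes in blue, mitochondrial enzymes in red and scaffolds in green. Open points mark the 6 genes whose reads looked divided between genes; the cytosolic genes run from CARS (0.475) to KARS (1.49) and the mitochondrial genes from VARS2 (0.841) to EARS2 (1.73).

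The 8 other cytosolic genes were flat or higher. KARS, the lysine enzyme of both compartments (chromosome 16, positions 75661622 to 75681585, minus strand), stood at 114 FPKM after knockdown and 76.6 FPKM in the control. Its log2 ratio of 0.56, with an FPKM ratio interval of 1.40 to 1.57, was the highest of the cytosolic class. GARS and KARS, the genes that supply both compartments, thus lay on opposite sides of 0. HARS (histidine) stood at 29.6 against 21.6 FPKM (0.44).

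The phenylalanine enzyme is built from 2 kinds of subunit. FARSA, the catalytic alpha subunit, stood at 27.5 FPKM after knockdown and 20.7 FPKM in the control (log2 ratio 0.39). FARSB, the beta subunit, stood at 22.6 against 20.3 FPKM (0.15), with an interval of 1.04 to 1.19 that did not overlap the 1.23 to 1.42 of FARSA. The subunits were thus nearly equal in level in the control library and less so in the knockdown library.

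DARS, the aspartate enzyme, stood at 111 FPKM after knockdown and 101 FPKM in the control (log2 ratio 0.13). VARS, the valine enzyme, which binds the elongation factor 1 complex, stood at 30.8 against 29.7 FPKM (0.05). QARS (glutamine) stood at 46.0 against 46.6 FPKM and RARS (arginine) at 53.0 against 53.3 FPKM, with counting intervals of 0.946 to 1.03 and 0.935 to 1.06. QARS and RARS were the genes nearest to no difference in this class.

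The ratios spread widely within the multisynthetase complex. The 8 complex enzymes (DARS, EPRS, IARS, KARS, LARS, MARS, QARS and RARS) ranged from -0.74 to 0.56 with a median of -0.02, and the 12 enzymes outside it from -1.05 to 0.44 with a median of -0.40. Of the 4 complex enzymes on the ATF4 list the median was -0.41, and of the other 4 it was 0.06. Within the complex, MARS and EPRS were lower and KARS was higher, so its transcripts did not differ between the libraries by a common factor. By catalytic fold, the 9 cytosolic enzymes of class I alone had a median of -0.19 and the 10 of class II alone one of -0.06, each with 3 genes that counted as lower.

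The 3 scaffolds had ratios from 0.04 to 0.52. AIMP1, which is also the precursor of a secreted cytokine, stood at 49.3 FPKM after knockdown and 33.98 FPKM in the control (log2 ratio 0.52, interval 1.37 to 1.54). AIMP2 stood at 31.2 against 22.6 FPKM (0.45, interval 1.28 to 1.495). EEF1E1, also known as AIMP3, stood at 13.0 against 12.7 FPKM (0.04), and its interval of 0.949 to 1.12 included 1.

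**Figure D3:**
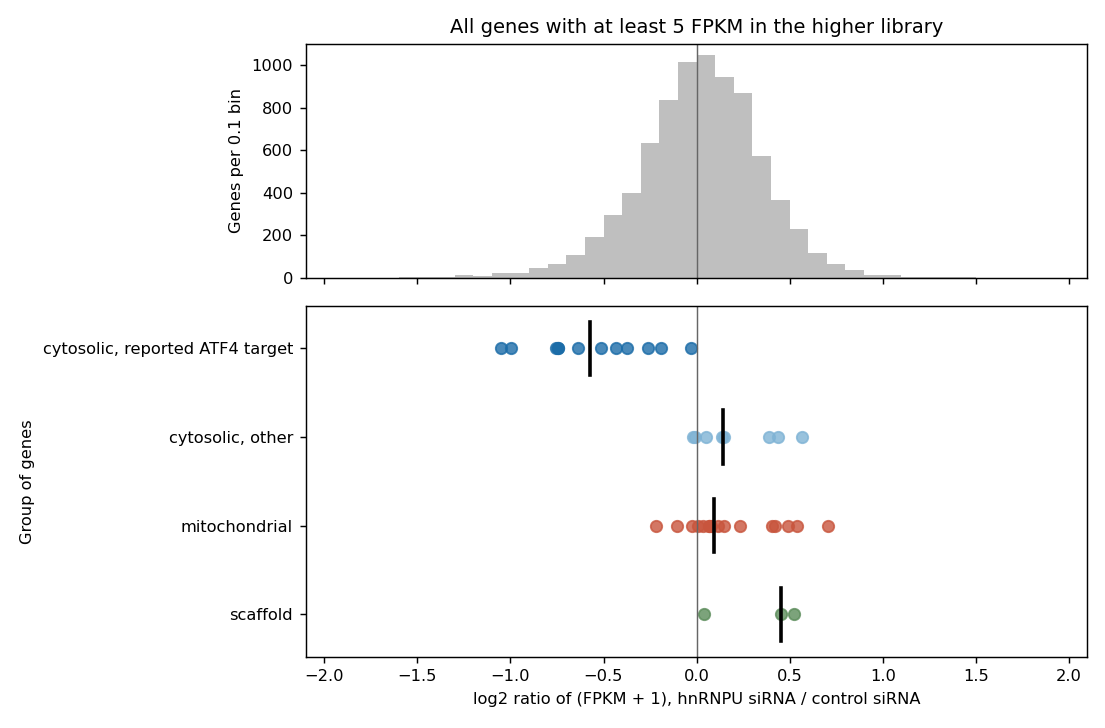
Distribution of the log2 ratio of (FPKM + 1) over the 7958 genes that reached 5 FPKM (top, genes per bin), and the ratio of each member (bottom, points) with the median of its group (black bar). The 12 cytosolic genes reported as ATF4 targets lie at or below -0.03 (LARS, the nearest to 0, crosses it with equal FPKM sums), while the other cytosolic genes, the mitochondrial enzymes and the scaffolds lie around and above 0.

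Among the mitochondrial enzymes, EARS2 was the highest and none had a counting interval wholly below 1. EARS2 charges glutamate onto both the glutamate and the glutamine tRNA of mitochondria, the second being corrected afterwards by an amidotransferase (chromosome 16, positions 23533334 to 23568696, minus strand). It stood at 11.1 FPKM after knockdown and 6.41 FPKM in the control, a log2 ratio of 0.71 with an FPKM ratio interval of 1.54 to 1.95. TARS2 (threonine) stood at 19.1 against 12.8 FPKM (0.54, interval 1.38 to 1.60). These were the mitochondrial enzymes that counted as higher.

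YARS2 (tyrosine) stood at 20.04 FPKM after knockdown and 13.99 FPKM in the control (log2 ratio 0.49). RARS2 (arginine) stood at 25.6 against 18.9 FPKM (0.42), and NARS2 (asparagine) at 7.75 against 5.605 FPKM (0.41). These 3 were higher by 1.36- to 1.43-fold in FPKM, just short of the limit. AARS2 (alanine) stood at 6.40 against 5.31 FPKM (0.23) and IARS2 at 66.3 against 59.8 FPKM (0.15). Counting intervals excluded 1 for 26 of the 39 members, and the share over all genes was not computed. The counting intervals of 7 of the 16 mitochondrial enzymes lay above 1 and those of the other 9 included 1.

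Those 9 all lay under 10 FPKM in both libraries. MARS2 stood at 8.21 FPKM after knockdown and 8.17 FPKM in the control, LARS2 at 7.93 against 8.07 FPKM and HARS2 at 9.58 against 9.10 FPKM. CARS2 (7.75 against 8.42 FPKM) and VARS2 (6.73 against 8.01 FPKM) had the lowest ratios of the class, -0.11 and -0.22, and with LARS2 they were the mitochondrial genes below 0. The VARS2 interval, 0.699 to 1.01, came from 242 knockdown and 230 control reads recovered over 903 bases. The merged exons of VARS2 cover 8448 bases, so its reads may be too few and its interval too wide. Whether VARS2 was lower beyond counting error is thus not settled. FARS2 (4.74 against 4.60 FPKM), WARS2 (4.03 against 3.78 FPKM), SARS2 (2.48 against 2.33 FPKM) and PARS2 (1.46 against 1.28 FPKM) lay under 5 FPKM in both libraries. PARS2, on 139 and 97 recovered reads, had an interval of 0.877 to 1.499, which held both no difference and the FPKM ratio of TARS2 (1.49).

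EARS2 is shown as the mitochondrial gene with the highest ratio. Its window held no TGATGNAA, and held the E-box CACGTG, in capitals, which MYC and related factors bind. CACGTG was present in 3 of the 14 mitochondrial genes with a window and 1 of the 16 cytosolic genes, against 8.77% of all genes. The other mitochondrial carriers, MARS2 and CARS2, had log2 ratios of 0.01 and -0.11. The core recognised by NRF1, a regulator of nuclear genes for mitochondria, reads GCGCA, any base, then GCGC, and was present in 3 of the 14 and 3 of the 16, against 6.98% of all genes. Both motifs were searched on both strands and chosen after the ratios had been seen.
EARS2, chr16:23557301-23557600, minus strand: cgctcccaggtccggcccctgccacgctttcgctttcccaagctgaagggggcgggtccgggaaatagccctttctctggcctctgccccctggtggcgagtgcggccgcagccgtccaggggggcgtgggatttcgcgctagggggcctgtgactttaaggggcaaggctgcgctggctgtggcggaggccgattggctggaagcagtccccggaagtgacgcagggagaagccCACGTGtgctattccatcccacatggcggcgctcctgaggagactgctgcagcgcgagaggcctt

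The compartments were then set side by side for the same amino acid. In 13 of 16 comparisons the cytosolic log2 ratio was below the mitochondrial one, with a median difference of -0.75, and in 11 the cytosolic gene was below 0 and the mitochondrial gene above 0 (10 under each of 3 other scalings, where RARS or MARS2 crossed 0). The 13 include leucine, whose difference of -0.004 was near 0. EPRS enters both the glutamate and the proline comparison, and FARSA and FARSB were averaged. Of the 15 comparisons with a single cytosolic gene, the counting intervals of the FPKM ratios did not overlap in 12 with the cytosolic gene lower and in 1 with it higher. They overlapped for leucine and valine, though the interval of VARS2 may be too wide. These intervals cover counting error only. How often other pairs of genes have intervals that do not overlap was not computed.

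Glutamate showed the widest difference, -1.34, between EPRS (-0.64) and EARS2 (0.71). Tryptophan followed at -1.07, with WARS at -0.998 and WARS2 at 0.08. Alanine (-0.97), threonine (-0.97), cysteine (-0.95), tyrosine (-0.86), serine (-0.82), methionine (-0.75) and asparagine (-0.67) lay in the same direction. For cysteine both genes were below 0, CARS at -1.05 and CARS2 at -0.11.

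For leucine, LARS and LARS2 had nearly equal ratios of -0.03 and -0.02. Phenylalanine (0.23), valine (0.27) and histidine (0.37) went the other way, and their cytosolic genes are among the 8 not listed as ATF4 targets. In the control library the cytosolic gene had 2.37 to 140 times the FPKM of its mitochondrial counterpart, with a median of 9.37. In the knockdown library the span was 2.07 to 78.8 with a median of 6.62, and the level ratio was smaller in 13 of the 16 comparisons.

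**Figure D4:**
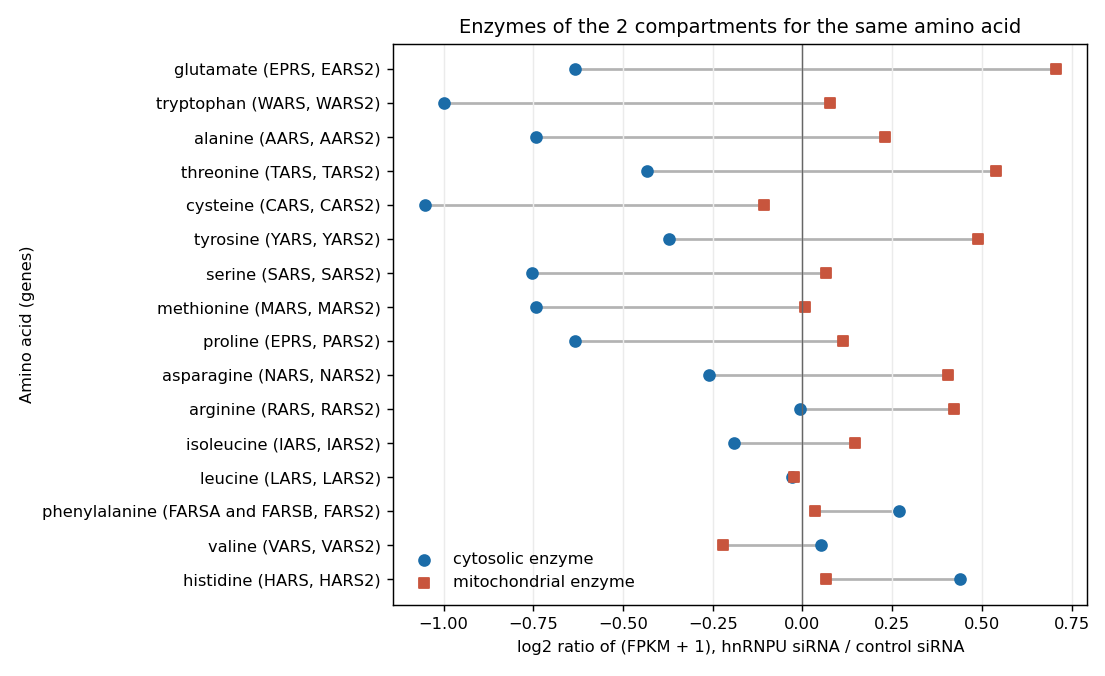
Log2 ratio of (FPKM + 1) of the cytosolic enzyme (circles) and the mitochondrial enzyme (squares) for each amino acid, ordered by their difference. The circle lies left of the square for 13 of 16 amino acids, from glutamate (-1.34) to leucine (near 0), and right of it for phenylalanine, valine and histidine.

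Several of these genes are neighbours with unlike ratios. EPRS and IARS2 lie 47.5 kb apart on chromosome 1 (positions 220141942 to 220220000 on the minus strand and 220267455 to 220321383 on the plus strand), with ratios of -0.64 and 0.15. MARS and DDIT3, the gene of the stress-induced factor CHOP, overlap by 68 bases of their listed spans on opposite strands of chromosome 12. MARS was lower (-0.74) and DDIT3 was higher, at 51.4 FPKM against 28.3 FPKM (0.84). HARS and HARS2 stand head to head on chromosome 5, and their spans in the table overlap by 671 bases (positions 140053490 to 140071681 on the minus strand and 140071011 to 140078903 on the plus strand), with ratios of 0.44 and 0.07. In all, 11 of the 39 members overlap another listed gene with at least 1 FPKM. The sources used here do not state whether counting kept the strands apart, so reads in such overlaps may be mixed.

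The HARS and HARS2 windows share 184 bases, printed here along the HARS2 strand because a single stretch of DNA serves as promoter window for both genes. The RefSeq starts lie 85 bases apart, and none of the 3 motifs was found in either window. The higher histidine gene was the cytosolic one, whose FPKM ratio had an interval of 1.29 to 1.46, against 0.955 to 1.16 for HARS2.
HARS and HARS2, chr5:140691321-140691504, plus strand: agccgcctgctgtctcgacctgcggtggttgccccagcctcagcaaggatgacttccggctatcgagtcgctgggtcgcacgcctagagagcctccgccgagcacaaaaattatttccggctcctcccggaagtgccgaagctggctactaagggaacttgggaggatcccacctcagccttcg

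Reads of AARS, GARS, VARS, AARS2, HARS2 and YARS2 looked divided among similar or overlapping genes, since they came out whole only over more length than the gene has, and their values are less certain. The table places VARS and VARS2 on alternative haplotype sequences of the major histocompatibility region (nt_167249 and nt_167248), whose haplotypes carry near-identical copies of a gene. Without the 6 genes of divided reads, 5 of 17 cytosolic enzymes counted as lower.

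Other genes of tRNA charging and use were taken from lists that hold no member. For comparison, 53.9% of the 7958 genes lay above 0. Of the mitochondrial charging genes outside the members, the amidotransferase subunits QRSL1, PET112 and GATC and the formyltransferase MTFMT were all 4 above 0. Their median log2 ratio was 0.32, and none was past 0.5. The highest was QRSL1 at 9.70 against 7.46 FPKM (0.34) and the lowest GATC at 14.6 against 12.0 FPKM (0.26). Of 9 mitochondrial translation factors, 7 were above 0, against the same 53.9%, with a median of 0.14. Of the 9, 1 counted as higher, against 6.13% of all genes, the ribosome-recycling factor GFM2 at 33.8 against 22.3 FPKM (0.58). Of 8 genes listed for selenocysteine charging, editing and peptidyl-tRNA release, 4 reached 5 FPKM, none of them for selenocysteine charging. None of the 4 passed 0.5 in either direction, from DTD1 (-0.29), a D-aminoacyl-tRNA deacylase, to AARSD1 (0.31), an alanyl-tRNA editing protein. The selenocysteine genes SEPSECS (1.11 against 1.49 FPKM) and PSTK (1.49 against 1.42 FPKM) lay under that minimum and were not assessed.

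None of 6 genes of tRNA export and delivery to the cytosolic ribosome passed a limit. XPOT, the tRNA exporter, was lowest at 65.5 FPKM after knockdown against 92.6 FPKM in the control (log2 ratio -0.49), and XPO5 was highest (0.20). The elongation factor EEF1A1, which hands charged tRNA to the ribosome, stood at 3225 against 2858 FPKM (0.17).

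In the list of uncharged tRNA sensing and the amino acid response, 6 of 11 genes counted as lower and 1, DDIT3, as higher, with a median of -0.56, against 6.2% and 6.13% of all genes. This list holds ATF4 and its targets, and ATF4 targets as a list were known to be lower in these libraries when it was drawn up. ATF4 stood at 132 FPKM after knockdown against 276 FPKM in the control (-1.06), and ASNS, asparagine synthetase, at 46.5 against 193 FPKM (-2.03). The eIF2 beta subunit EIF2S2 (-0.69), TRIB3 (-0.71), SESN2 (-0.56), and IMPACT (-0.61), which restrains the uncharged tRNA sensor GCN2, were also lower. DDIT3, of the same list, went the other way, at 51.4 FPKM after knockdown against 28.3 FPKM in the control (0.84). EIF2AK4, the gene of GCN2 itself, stood at 23.3 against 24.5 FPKM (-0.07). The reads of ATF4, EIF2S2, IMPACT and EIF2AK4 had the divided form.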

How the data were processed

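Per the labels' protocols, RNA came from a Trizol extraction of the RKO cells and libraries followed the Life Technologies procedure. The authors deposited 1 FPKM value per gene and library. The submitters' processing notes name Bowtie and GRCh37. Annotation, counting program and strand use: not given in the sources used here. No other value columns were used.

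The members and lists were chosen with earlier results of these data known. Genes named were all 39 members, HNRNPU, and in each list those past a limit or else the highest and lowest. EEF1A1, EIF2AK4, SEPSECS, PSTK and DDIT3 as the neighbour of MARS were named outside this rule, after their values were seen. Sequences were to be shown for the highest and lowest member of a class and for neighbouring genes. Windows of CARS, KARS, EARS2 and the HARS and HARS2 pair were printed, and those of the other genes under that rule were not. The 8 stretches with TGATGNAA were added after the ratios were seen.

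Depth came from short noncoding genes of at most 400 bases, where the commonest value of FPKM times length was taken as 1 read. Within 1e-06 of a whole number, 70.7% of 618 such genes in the control library and 68.9% of 657 in the knockdown library held whole reads. Each FPKM was next expressed as whole reads over a length. A common factor of the pair is lost, so reads can be too few. Where the recovered length was over 1.25 times the merged exons of the gene in GENCODE 29, reads were called divided and scaled down. Exact Clopper-Pearson 95% intervals of the FPKM ratio cover counting error only. For 2000 bases, 3 reads would amount to 0.0472 FPKM (control) and 0.0377 FPKM (knockdown). Depth, the ratio of recovered reads and the calls at 0.5 were tried on simulated libraries. The read ratio was right for 3000 of 3000 genes, and 18 of 7524 unchanged genes were called. The simulation held counting noise only, without spread between dishes or library preparations. Its 18 of 7524 is thus no rate of false calls for the real libraries. The read numbers behind the intervals and the handling of divided reads were not tested. With 1 library per group no test or count model was used. Python 3.11.15, numpy 2.4.6, pandas 2.3.3 and scipy 1.17.1 were used. Other pseudocounts, scalings, minimum levels and member sets were tried. A gene of a list, and the setting that added it, are not reported here.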

Additional observations from a re-analysis of the deposited data

How the results depend on the processing

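No paired analysis was possible because there was a single library in either group. Of 77 values under 11 other settings, 69 stayed within 0.09 (log2) of the reported median or within 1.5 times the reported count, and none changed sign. With a minimum of 10 FPKM in the higher library, which leaves fewer mitochondrial enzymes, their median was 0.49 and the cytosolic minus mitochondrial median was -0.71, against -0.32 as reported. The cytosolic ratio was then lower in 5 of 5 remaining comparisons by amino acid, but EARS2 passed this minimum through the knockdown library alone (11.1 against 6.41 FPKM). With the minimum set on the mean of both libraries, an alternative chosen after seeing the data, these values were 0.46, -0.68 and 4 of 4, and 1 mitochondrial enzyme was at 0.5 or more. With a pseudocount of 5 FPKM, which shrinks low genes most, the count of mitochondrial enzymes at 0.5 or more was 0. The median of the cytosolic enzymes ranged from -0.26 to -0.19 and their count at -0.5 or less from 5 to 7; GARS was the one lost with equal FPKM sums. Scaling to equal FPKM sums, to the median ratio and to the upper quartile moved the members by up to 0.03, -0.04 and -0.02, low genes by less. QARS, RARS, LARS, LARS2 and MARS2, all within 0.03 of 0, have no direction that holds beyond such shifts. Depth limited the mitochondrial genes most, as for PARS2 on 97 and 139 reads.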
